A study of Drosophila melanogaster with 2 samples.

Results

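The fourth chromosome of Drosophila melanogaster held 327 of the 161563 peaks in the ranked list that pairs both replicates of a ChIP-seq experiment on the transcription factor Atonal. The members were all ranked peaks on that chromosome, chosen by position and not by any measured value. Of the 327, 11 were also in the conservative list, which keeps peaks that both replicates ranked reproducibly and which held 3009 peaks genome-wide. The 327 peaks formed 261 separate intervals once overlapping peaks were merged.

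Transgenic flies carried ato fused to eGFP, and an anti-GFP antibody recovered the fusion protein with its DNA from whole embryos aged 0 to 18 h. The 2 biological replicates form 1 group, and no second condition exists. Chromatin was sonicated to 200 to 800 bp. A whole embryo mixes all cell types, of which few express ato, so a peak cannot be assigned to a cell type. No control was analysed here.

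The fourth chromosome, also called the dot chromosome or Muller element F, is a very small autosome. It is rich in transposon remnants, is packaged largely with the heterochromatin protein HP1a, and has a chromosome-wide binding protein of its own, POF, yet its genes are active. Atonal is a proneural basic helix-loop-helix factor that starts the development of chordotonal organs and of the founder photoreceptors. With its partner Daughterless it binds E-boxes, whose core is CANNTG. The palindrome TATCGATA is known as the DNA replication-related element, bound by DREF at many promoters of growth and housekeeping genes.

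The sequences at the summits of the 11 conservative peaks are printed so that the motifs counted below can be read in place. They are the plus strand of the RefSeq dm6 assembly, in order of falling peak signal, with up to 50 bases to each side of the summit. Windows were shortened where they ran further into an annotated UTR. Capitals mark CANNTG and TATCG on either strand, so CGATA is TATCG on the minus strand and TATCGATA holds both.
Asator chr4:486638-486738: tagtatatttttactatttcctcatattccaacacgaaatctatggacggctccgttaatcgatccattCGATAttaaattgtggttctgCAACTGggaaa
pan chr4:69267-69355: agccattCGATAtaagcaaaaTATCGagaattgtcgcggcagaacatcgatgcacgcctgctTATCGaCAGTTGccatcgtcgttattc
Actbeta chr4:1084822-1084922: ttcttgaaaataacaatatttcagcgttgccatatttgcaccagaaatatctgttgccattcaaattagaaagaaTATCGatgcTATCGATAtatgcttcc
fuss chr4:979684-979784: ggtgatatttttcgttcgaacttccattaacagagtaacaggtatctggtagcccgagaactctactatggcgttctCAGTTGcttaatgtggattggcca
Asator chr4:481941-481977: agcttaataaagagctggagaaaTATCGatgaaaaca
zfh2 chr4:498461-498561: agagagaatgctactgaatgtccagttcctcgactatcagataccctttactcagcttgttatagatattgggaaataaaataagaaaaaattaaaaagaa
PlexA chr4:1027133-1027233: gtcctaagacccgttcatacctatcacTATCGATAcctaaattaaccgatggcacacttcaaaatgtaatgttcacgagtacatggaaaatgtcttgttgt
lgs chr4:424755-424855: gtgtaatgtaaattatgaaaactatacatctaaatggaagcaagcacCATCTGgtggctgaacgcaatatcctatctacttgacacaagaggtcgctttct
MED26 chr4:787585-787679: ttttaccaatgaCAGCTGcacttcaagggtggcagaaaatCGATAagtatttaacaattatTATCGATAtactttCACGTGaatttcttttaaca
CG11076 chr4:1030866-1030894: aaaaatacaagggaaaTATCGatgcatcg
Hcf chr4:359864-359964: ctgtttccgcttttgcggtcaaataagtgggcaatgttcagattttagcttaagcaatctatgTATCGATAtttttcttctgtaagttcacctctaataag

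Of the 11 windows of 101 bp, 8 held TATCG and 4 of those, at Actbeta, PlexA, MED26 and Hcf, held the whole TATCGATA. An E-box stood in 6 of the 11. The E-box at the Asator intronic peak, at pan and at fuss was CAACTG, which reads CAGTTG where it lies on the minus strand. The shortened windows leave out part of what was counted, namely both E-boxes at CG11076 and 1 TATCG each at CG11076 and the second Asator peak. The window at zfh2 had neither motif, and those at fuss and lgs had an E-box and no TATCG.

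The fourth chromosome had few ranked peaks for its size. It carried 243 ranked peaks per Mb over 1.35 Mb, against 1201 per Mb over the 5 large arms together, a 4.95-fold lower density. The large arms ranged from 1133 per Mb on 3L to 1257 on 3R, and the Y chromosome had 88.1. The chromosome made up 1.01% of the length of the 6 arms and held 0.205% of their ranked peaks. The list of replicate 1 alone gave 238 per Mb against 888, and that of replicate 2 gave 288 against 1051, so both replicates placed the chromosome far below the large arms. Soft-masked repeats covered 27.8% of the chromosome and 20% of the large arms. Per unmasked Mb the densities were 336 and 1502, a 4.47-fold difference. Peaks in masked sequence were counted in these densities too, and the part of repeats in the difference was not tested. The chromosome is also poorer in protein-coding genes, with 59.3 per Mb against 105, and per coding gene it had 4.09 ranked peaks against 11.5. These differences were not tested, because peaks are not replicates and the design has 1 group.

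The gap to the large arms was smaller among conservative peaks. The chromosome had 8.16 conservative peaks per Mb and the large arms 22.6, a 2.77-fold lower density. The share of ranked peaks that passed was 3.36% (11 of 327, 95% Wilson interval 1.89 to 5.92%), against 1.86% over all ranked peaks and 1.72 to 2.28% on the large arms. The lower bound lies close to the share over all ranked peaks, and the interval treats overlapping peaks as separate. The lists that pool the replicates gave 3.78% (13 of 344), against 2.02% of all their peaks. Replicate 1 alone gave 4.36% (14 of 321), against 2.11%. Replicate 2 alone gave 1.55% (6 of 388, 0.711 to 3.33%), against 1.23%, so in that replicate the share was near its background. Genome-wide, 124 of the 161563 ranked peaks were past an irreproducible discovery rate (IDR) of 0.01 and absent from the conservative list. On the chromosome this held for 0 of 327, which at so low a rate does not set it apart.

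**Figure D1:**
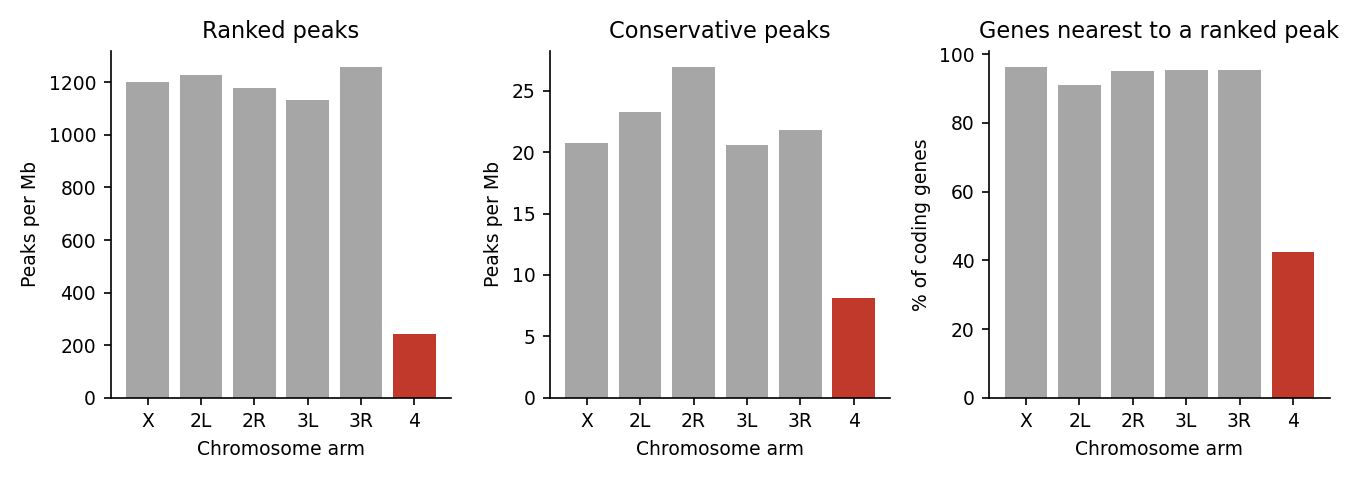
Ranked peaks per Mb, conservative peaks per Mb and the percentage of protein-coding genes nearest to at least 1 ranked peak, by chromosome arm. The fourth chromosome (red) stood at 243 ranked and 8.16 conservative peaks per Mb and 42.5% of genes, the lowest of the 6 arms in each panel.

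The signals of its peaks were close to those elsewhere. The signal of a ranked peak, on the authors' deposited scale, had a median of 19.8 on the fourth chromosome (quartiles 11.3 and 31.4) and of 17.8 on the large arms (10.7 and 26.3). Among conservative peaks the medians were 88.1 (71.9 and 172) and 88.6 (67.6 and 135). Both pairs of medians differed by far less than the quartiles within either set. The strongest peak of the chromosome ranked 137 of all 161563.

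That strongest peak lay in an intron of Asator, which encodes a casein kinase 1 family kinase that binds tubulin. It covered chr4:486602-486779 with its summit 655 bp upstream of the nearest annotated Asator start. Its signal was 129 in the list of replicate 1 and 138 in that of replicate 2, and 269 in the list pairing them. The second Asator peak, chr4:481791-482126, had its summit 11 bp inside the 5′ UTR, with signals of 83.9 and 58.7. Of the lists of single replicates, only that of replicate 1 held it past the threshold. Asator was the only coding gene of the chromosome nearest to more than 1 conservative peak.

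After the intronic Asator peak, the strongest conservative peaks were those at pan, Actbeta and fuss. The peak at pan, which encodes the TCF factor of Wnt signalling, covered chr4:69245-69355, 15 bp upstream of the start. Its signal was 110.4 in replicate 1 and 98.3 in replicate 2. The peak at Actbeta, a TGF-beta family ligand, covered chr4:1084817-1084950, 76 bp upstream, with 93.5 and 85.1. The peak of fuss, which encodes a Ski/Sno family protein, lay 1245 bp upstream at chr4:979674-979815, with 105 and 54.0. PlexA, the receptor for transmembrane semaphorins in axon guidance, had a peak at chr4:1027015-1027350, 82 bp upstream, with 55.5 and 28.5. The scale of the signal is not known to be the same in both lists, so each was also set against the median of its own ranked list. On that log2 scale pan stood at 3.38 in replicate 1 and 3.05 in replicate 2, and Actbeta at 3.14 and 2.84. The fuss peak stood at 3.30 and 2.18 and the PlexA peak at 2.38 and 1.26, wider gaps than at pan and Actbeta.

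The peaks at PlexA, zfh2, lgs and CG11076, like the second Asator peak, overlapped a thresholded peak of replicate 1 only. The peak near zfh2, a zinc finger homeodomain factor, lay 3299 bp upstream at chr4:498343-498678 with 44.9 in replicate 1 and 37.6 in replicate 2. Its summit lay in an INE-1 transposon remnant, and 84.2% of its window was masked, the highest among the 11. The peak assigned to lgs, the BCL9 adaptor of Wnt signalling, lay at chr4:424637-424972, 19106 bp from the lgs start. The nearest start of any kind was that of lncRNA:CR43437, 1262 bp away, so the link to lgs rests on distance among coding genes alone. Its signals were 46.9 and 34.5. The peak of CG11076, at chr4:1030712-1031047, had its summit 95 bp inside the 5′ UTR and 604 bp from the start of ATPsynbeta, a subunit of the mitochondrial ATP synthase, with 42.3 and 32.8.

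MED26, a Mediator subunit, and Hcf, a co-regulator of transcription, had conservative peaks that neither replicate held past its own threshold. The MED26 peak, chr4:787464-787799, lay 18 bp upstream of a start and in the intron of a longer transcript, with 31.4 and 42.5. The Hcf peak, chr4:359746-360081, lay 24 bp upstream, with 27.3 in replicate 1, and no ranked peak of replicate 2 overlapped it. In the list that pairs the replicates its signals were 27.3 and 35.2 and its −log10 IDR was 2.16, just inside the threshold of 2.0. PlexA, at 2.37, was the next inside. Just outside were a peak assigned to Zyx at 1.83, one of ey at 1.81 and one of Sox102F at 1.80.

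Across the 11, 4 overlapped a thresholded peak of each replicate (36.4%), at the Asator intron, pan, Actbeta and fuss. A thresholded peak of replicate 1 overlapped 9 and one of replicate 2 overlapped 4. Genome-wide the thresholded list of replicate 1 was the longer, with 2501 peaks against 1737. These overlaps were not counted over all 3009 conservative peaks, so they cannot be read as particular to the chromosome. All 11 were in the thresholded pooled list. The 4 found in both were the 4 strongest.

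**Figure D2:**
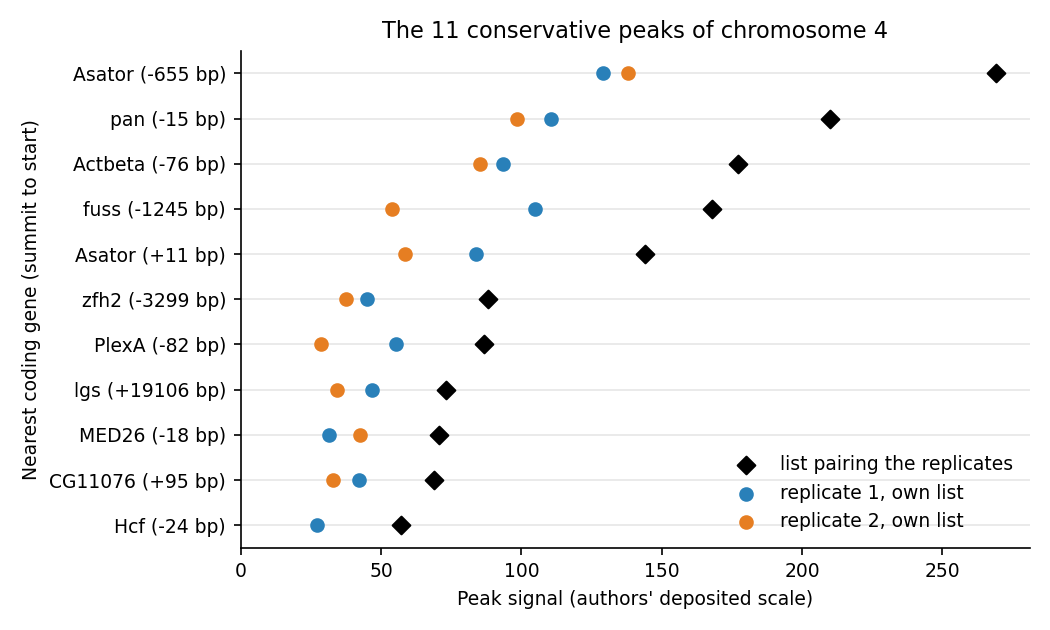
Signal of the 11 conservative peaks of the fourth chromosome on the authors' deposited scale, in the list that pairs the replicates (diamonds) and in the list of each replicate alone (blue and orange points), with 1 line per peak. The scales of the lists are not known to be the same. The Asator intronic peak stood at 129 and 138 in the replicates and the Hcf peak at 27.3 in replicate 1 alone.

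The conservative peaks lay mostly at gene starts. Of the 11 summits, 7 were within 500 bp of an annotated start (63.6%, Wilson interval 35.4 to 84.8%), against 86.4% on the large arms. All 7 were within 100 bp. The other 4, at the Asator intron, fuss, zfh2 and lncRNA:CR43437, lay 655 to 3299 bp from a start, and 3 of those 4 were intergenic. In replicate 1 alone the share was 50% and in replicate 2 alone 33.3%. Among the 316 peaks that did not pass, 30 were near a start (9.49%), against 14.6% on the large arms, and the median distance was 3878 bp against 2656 bp. Of the 11 summits, 2 lay in introns, 2 in 5′ UTRs and 7 between genes, with 0 in coding exons. Coding exons held 107 of the 316 peaks that did not pass (33.9%), introns 91 (28.8%) and intergenic sequence 99 (31.3%). On the large arms these shares were 25.5%, 39.7% and 25.6%.

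**Figure D3:**
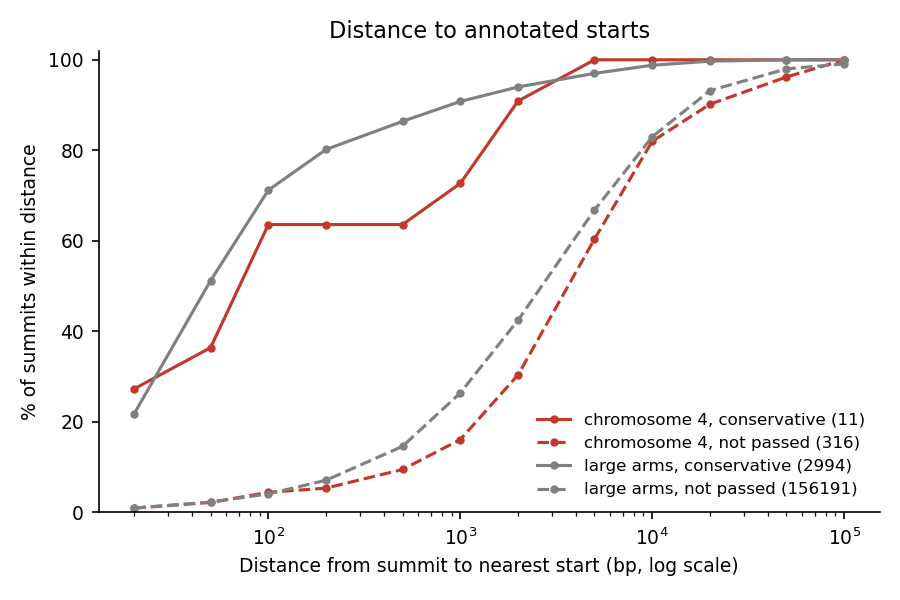
Percentage of peak summits within a given distance (log scale, bp) of the nearest annotated start, for conservative peaks (solid) and peaks that did not pass (dashed) on the fourth chromosome (red) and the large arms (grey). The 11 conservative summits of the fourth chromosome reached 63.6% at 100 bp and stayed there to 500 bp, while the large arms rose from 71.2% to 86.4%.

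Transposon sequence lay under some of the ranked peaks. Annotated transposable elements covered 24.8% of the chromosome and 5.74% of the large arms. They held 70 of the 327 ranked summits (21.4%), close to their share of the chromosome, whereas on the large arms they held 1.23% of summits. INE-1, the short element that is scattered over this chromosome, held 29 of the 70 summits. The telomeric element HeT-A held 14, all beyond the end of Cadps. The others were spread over gypsy7 with 7, 1360, Burdock and Tc1 with 4 each and further families, 14 in all. Among the 11 conservative peaks only the zfh2 peak lay in an element, and 8 of the 11 windows had no masked base. Of the 316 peaks that did not pass, 69 lay in an element and 173 had no masked base. On the large arms 25 of 2994 conservative peaks lay in an element. The 11 peaks are too few to set them apart from the others in this respect. Reads from repeated copies can be placed at more than 1 position. No source used here says how the authors treated such reads, and their part in these counts was not tested. The chromosome was also poorer in G and C, at 35.2% against 42.2%, as were the conservative windows, at a median of 35.6% against 45.5%.

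The strongest peak outside the conservative list was at PMCA, the plasma membrane calcium pump. It had a signal of 95 in the paired list, above 6 of the 11 conservative peaks, and its summit was 59 bp upstream of a start with TATCGATA in the window. The paired list gave its replicates 13.7 and 38.3, and its −log10 IDR was 0.29. Its own list gave replicate 2 a signal of 38.3, and that of replicate 1 had no ranked peak there, while the thresholded pooled list did hold a peak overlapping it. Sox102F, which encodes a SoxD factor, had peaks of 61.8 and 56.7 at 1431 and 666 bp upstream of its start. The second of these had 52.4 in replicate 1 and 12.7 in replicate 2 and was past the threshold in replicate 1 only. For dati, a zinc finger factor of interneurons, a peak of 56.5 had 16.9 in replicate 1 and 44.8 in replicate 2 and was past the threshold in replicate 2 only, and a further dati peak reached 56.0. The remaining 5 of the 10 strongest were at bt, the muscle protein projectin, with 61.0, fuss with 59.7, gw, a core protein of miRNA silencing, with 58.0, zfh2 with 57.6 at 135 bp upstream, and PlexB with 56.7. The bt peak overlapped a thresholded peak of replicate 1, with 33.0 in that replicate and 23.0 in replicate 2. The bt and fuss peaks lay in INE-1 copies. Across all 327 peaks, Spearman's rho between the replicate columns was 0.411 and Pearson's r of the log2 values 0.447. Over all 161563 ranked peaks these were 0.258 and 0.310. The correlations are across peaks of the same pair of libraries and carry no p. Overlapping ranked peaks can repeat the same pair of replicate values, so some pairs were counted more than once.

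**Figure D4:**
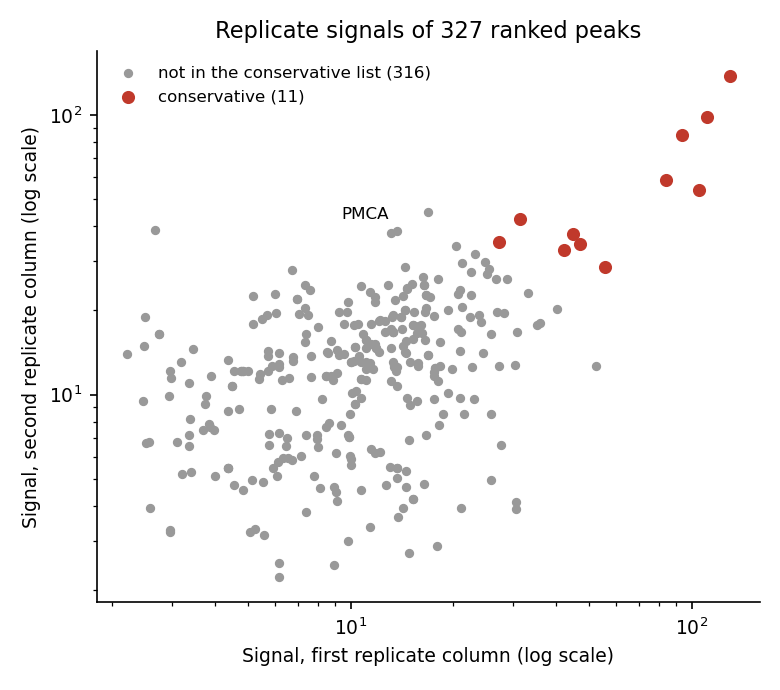
Signal of each of the 327 ranked peaks in the first and second replicate column of the paired list, on log scales, with the 11 conservative peaks in red. The conservative peaks lay at 27.3 or higher in the first column and 28.5 or higher in the second, and PMCA stood at 13.7 and 38.3.

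Assigned by nearest start, the peaks gathered at few genes. Of the 80 protein-coding genes, 34 (42.5%) were nearest to at least 1 ranked peak, against 94.6% on the large arms. Within 500 bp of a start, 17 genes (21.2%) had a ranked peak, against 90.2%, and 7 (8.75%) had a conservative peak, against 21.8%. The 10 genes with the most peaks had 224 of the 327 (68.5%) on 29.4% of the chromosome. MED26 had 47 and dati 42, followed by bt and ey with 21 each, lgs with 17, and Cadps, Sox102F and fuss with 16 each. Between this count and the length of chromosome nearest to a gene, Spearman's rho was 0.616 over the 80 genes, given as a description. Nearest start is not the gene a summit lies in. Of the 47 peaks assigned to MED26, 28 lay inside bt and 11 inside MED26, and bt itself held 38 summits, the most of any gene. The gene ey held 29 and dati 18. All 16 peaks assigned to Cadps, the vesicle priming protein CAPS, lay outside the gene in transposon sequence, 14 of them in HeT-A, with the closest 40551 bp from its start. By either count, nearest or inside, 38 of the 80 genes had a ranked peak.

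**Figure D5:**
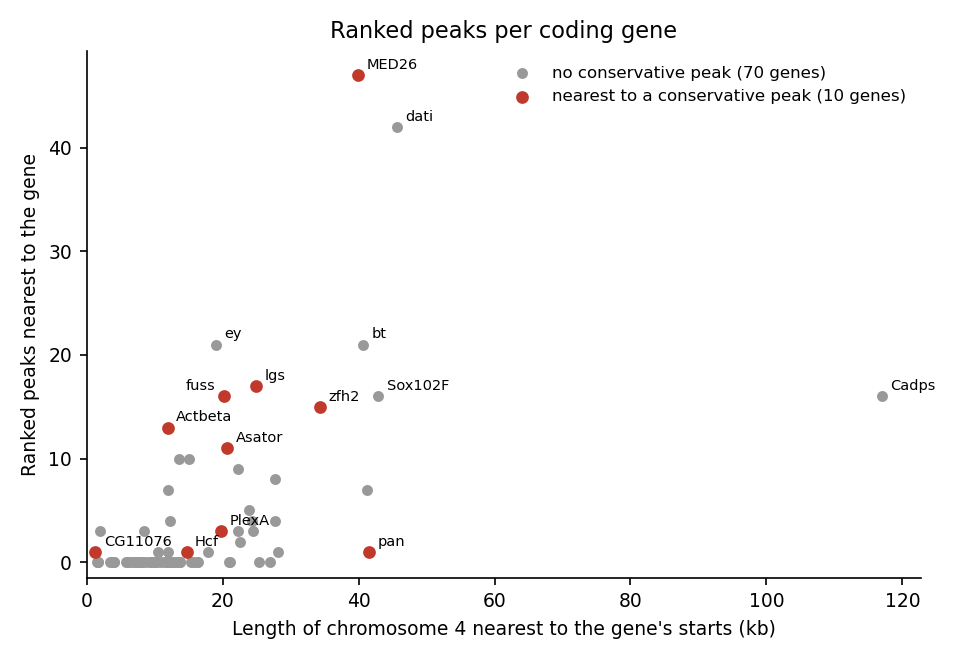
Ranked peaks nearest to each of the 80 coding genes of the fourth chromosome against the length of chromosome nearest to that gene's starts (kb), with the 10 genes nearest to a conservative peak in red. MED26 and dati stood highest at 47 and 42 peaks, though 28 of the 47 lay inside bt, and pan had 1 peak, which was conservative, over 41.6 kb.

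Among lists of genes known from work on this chromosome, the transcription factors and co-factors had a conservative peak at 4 of 15 genes (26.7%), namely pan, zfh2, lgs and Hcf. The signalling genes had one at 3 of 9 (33.3%), namely PlexA, Actbeta and lgs, which is in both lists. The synapse, neuron and muscle genes had one at 0 of 10, the housekeeping genes at 1 of 12 (8.33%, Asator) and the 35 genes in no list at 3 (8.57%). All 80 genes together stood at 10 (12.5%). These counts use the nearest coding start at any distance. The summit counted for lgs in both lists lay 19106 bp from its start, and that for zfh2 3299 bp. Within 500 bp of a start, the listed genes with a conservative summit were pan, Hcf, PlexA, Actbeta and Asator, against 7 of all 80 genes (8.75%). The lists are small, were drawn up with results of these data known and were not tested. Their names are labels. No expression was examined, so housekeeping is not an established property of each gene in that list.

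Other transcription factor genes had ranked peaks and no conservative peak. Of the Pax6 genes, which act in eye development, ey had 21 ranked peaks, the strongest at 51.6 and 399 bp upstream of a start, in an INE-1 copy, and toy had 4, the strongest at 34.2 and the closest 2087 bp from its start. The Pax2 gene sv, named after its values were seen, had 5 ranked peaks, the strongest at 50.7 and the closest 100 bp upstream of its start. Taf3, a subunit of the general factor TFIID, had 1 peak of 53.0 at 8052 bp. The Hedgehog effector ci had no ranked peak, and the closest summit was 12270 bp from its start. No ranked peak was nearest to fd102C, onecut or Mitf either, but 3 summits assigned to Sox102F lay inside fd102C.

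In the other lists, peaks were again counted at the nearest start. Among signalling genes, PlexB had 4, while Eph and Ephrin, a receptor and ligand of axon guidance, and mav and myo, TGF-beta family ligands, had 0. For the synapse and muscle list the peaks were at Cadps, all in transposons beyond the gene, bt, unc-13 with 7 and Ekar with 10. None of the 7 peaks of unc-13 lay inside it, and 7 of the 10 of Ekar lay inside gw. There were 0 at mGluR, CaMKII, Syt7 and Ank. In the list named housekeeping, Asator had 11 of the 27 ranked peaks and JYalpha 9, so its counts rest mostly on these genes. Gyf and gw had 3 each and Tdg had 1, and RpS3A, ATPsynbeta, eIF4G1 and Rad23 had 0. However, 4 of the summits assigned to unc-13 lay inside eIF4G1. With summits inside a gene counted too, 6 of 12 housekeeping genes, 5 of 10 synapse, neuron and muscle genes, 4 of 9 signalling genes and 10 of 15 transcription factor genes had a ranked peak. Per Mb of chromosome nearest to the genes of a list, the transcription factors had 324 ranked peaks, signalling genes 291, the synapse, neuron and muscle list 179, with the Cadps peaks included, and housekeeping genes 176, against 243 for the chromosome.

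Long stretches held no ranked peak. The longest ran from chr4:170178-316010, 146 kb with 13 coding genes, among them Crk, NfI, Syt7 and Rad23. The lists of replicates 1 and 2 left 143 and 141 kb of it empty, so the gap was in both. It was 29.7% masked, close to the 27.8% of the whole chromosome, and held 0 unknown bases. The second, chr4:1162300-1272265, was 110.0 kb and included 17000 unknown bases. The large arms, which add up to 133 Mb, had 8 gaps of 100 kb or more in all, and the longest, 218 kb on 2L and 157 kb on 3L, exceeded that of this chromosome. In bins of 100 kb the chromosome had a median of 15 ranked peaks and at most 91, between 700 and 800 kb, which holds bt, MED26 and nearly all of ey, and 1 of its 13 full bins was empty. The median bin of the large arms had 132, and 16.7% of their bins were at or under 91. Of the 11 conservative peaks, 4 were between 400 and 500 kb and 3 between 1000 and 1100 kb.

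Beside the sequences printed above, the same motifs were counted in windows of 101 bp centred 500 bp to each side of each summit. TATCG was in 8 of 11 summit windows (72.7%) and in 3 and 0 of the flanking windows. The excess at summits over flanks, 59.1 percentage points, was 32.1 among the thresholded peaks of replicate 1 alone. On the large arms TATCG was in 53.6% of conservative summit windows and in 12.7% and 12.3% of the flanks. TATCGATA was in 4 of 11 (36.4%) and in 0 of either flank, an excess that was 14.3 and 16.7 points among the thresholded peaks of replicates 1 and 2 alone. The shares at the summit and flanks were 18.0%, 0.935% and 0.367% on the large arms. All 7 conservative summits near a start had TATCG, against 58.7% of such summits on the large arms. These motifs were chosen with the sequences known.

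For the E-box core, to which Atonal binds, the difference between summits and flanks was smaller. CANNTG was in 6 of 11 summit windows (54.5%) and in 5 and 3 of the flanks, a difference of 18.2 percentage points that moved in both directions with the settings. It was -4.55 in windows of 25 bp to each side, 4.55 in windows of 100 bp and 8.33 among the 6 strongest peaks. It was 31.8 with flanks at 1000 bp and 41.7 among the 6 thresholded peaks of replicate 2 alone. On the large arms the summit had 38.6% and the flanks 39.4% and 38.9%. CAACTG was in 3 of 11 summit windows and 0 of either flank, against 7.38%, 5.68% and 6.08% on the large arms. It is named after the counts were seen, as the core with the largest excess of 10. CAAATG and CATATG went the other way, each in 0 of 11 summit windows and in 3 and 1 of the flanks. Among the 316 peaks that did not pass, CANNTG was in 36.1% of summit windows and 31.6% and 34.5% of flanks, TATCG in 11.7%, 16.1% and 13.6%, and TATCGATA in 1.27%, 1.90% and 0.633%.

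The starts of the chromosome were also sorted by motif. TATCGATA was picked with the summit sequences known. The conservative counts below therefore reuse peaks that led to the motif and are not independent of them. Of 142 coding starts, 9 (6.34%) had TATCGATA in a window of 101 bp, against 4.46% on the large arms. A conservative summit lay within 500 bp of 3 of those 9 starts (33.3%) and of 5 of the 133 others (3.76%). A ranked summit lay near 4 of the 9 and 20 of the 133. For TATCG a conservative summit lay near 6 of 44 starts with it and 2 of 98 without. A ranked summit lay near 9 of those 44 and 15 of those 98. For CANNTG the starts with and without it had a conservative summit in 2 of 43 and 6 of 99. The 142 starts include several of 1 gene, the counts are small and no test was made.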

How the data were processed

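Binding was measured by ChIP-seq in 2 replicates, numbered as in the labels. On dm6, per the labels, the authors deposited 8 lists, namely ranked and thresholded peaks for each replicate, for both paired (conservative) and for both pooled. Peak signals are as the authors deposited them, and their scale is not stated. Values from different lists stand side by side, and single peaks were compared between lists relative to the median of their own list. The −log10 of the IDR is as deposited. Scores and −log10 p-values or q-values in the deposited lists were not analysed. The aligner, the caller and the treatment of repeated reads were not given in the sources used here. The deposited lists hold no read counts, so depth is unknown, and Wilson intervals (95%) cover the counting of peaks only. In the paired list the replicate columns carry no replicate name, so values by replicate come from the strongest overlapping peak (at least 1 bp) in each replicate's own ranked list.

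Starts, exons and transposable elements came from Ensembl release 115 and sequence and soft-masking from the RefSeq dm6 assembly. Each summit went to the coding gene whose annotated start was nearest, and a start counted as near within 500 bp. Motifs were counted on both strands of a window of 50 bp to each side of the summit. TATCG overlaps TATCGATA, which counts for both. Python 3.11.15, numpy 2.4.6, scipy 1.17.1 and pandas 2.3.3 were used, and the scripts were tested on simulated data. With 1 group no test was made.

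The members and gene lists were chosen with earlier results of these data known. Of the listed symbols, 15, 9, 10 and 12 were found on the chromosome, Tdg under an older name. Genes named are those nearest to a conservative peak, those of the 10 strongest other peaks, and up to 4 with and 4 without a peak per list. Genes named for their number of ranked peaks, for a stretch without peaks or for their IDR were named after their values were seen. Alternatives were the pooled lists, each replicate alone, merged peaks, the strongest 50% of peaks, other distances, windows, flanks and overlaps, and other ways of assigning genes. The count of summits inside genes was added after the data were seen.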

Additional observations from a re-analysis of the deposited data

How the results depend on the processing

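Over 11 results, 71 alternatives were computed, and 63 stayed within the interval of the reported value or within 1.5 times a count. Some of these could not move. Counting peaks past the IDR threshold as passing added 0 peaks on the chromosome. The 11 conservative peaks did not overlap each other, so merging changed only the share of ranked peaks that passed. The number that stayed is therefore no measure of robustness. Over the lists of single replicates the share of ranked peaks that passed ran from 1.55 to 4.36%. The share of conservative summits near a start ran from 33.3 to 50% and the median conservative signal from 53.9 to 69.6. The share overlapping thresholded peaks of each replicate ran from 35.7 to 66.7%. There each peak overlaps its own list by construction, so this share measures overlap with the other replicate only. It is not the same quantity as the share in the paired list and is no check of it. The number of genes nearest to a passing peak ran from 6 to 12, and the excess of TATCGATA at summits over flanks from 14.3 to 16.7 percentage points, against 36.4 in the paired list. Among the 6 strongest conservative peaks, 66.7% overlapped thresholded peaks of each replicate. That share follows from picking by signal, because the 4 peaks found in both replicates were the strongest. The 5 genes nearest to these 6 peaks follow from the smaller number of peaks. The cause of the other moves was not tested. The signal scales of lists of single replicates and of the paired list are not known to be the same, so the medians of signal above are given as values and not as a comparison. Alternatives for TATCG, density and the longest empty stretch were added after the data were seen and stayed within these limits, though the intervals are wide and the TATCG excess ran from 32.1 to 41.7 percentage points over single replicates, against 59.1. That of CANNTG, 18.2, ran from -4.55 to 41.7 over all its alternatives. Of 32 alternatives for single peak signals, those of fuss and PlexA in replicate 2 alone moved, from 3.24 to 2.18 and from 2.29 to 1.26 on the log2 scale. The Hcf peak overlapped no ranked peak of replicate 2, so it has no value there and is not among the 32. No paired analysis was possible because the series has 1 group and no result comes from a test. With 11 conservative peaks, each peak moves a share by 9.09 percentage points, and depth is unknown.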
